A study of Mus musculus with 9 samples.

Results

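The genes described here encode the machinery of synaptic vesicle release and recovery, 41 genes out of the 43629 with a row in the deposited counts of mouse frontal cortex. They were chosen by name as vesicle, SNARE and endocytosis genes, with earlier results of these data in view though with no threshold on their values, and each was found by its Ensembl ID. All 41 were well above the filter on low counts, with no fewer than 380 reads on any member in any library, and all 41 were among the 19753 genes tested. RNA was sequenced after depletion of ribosomal RNA from 5 wild-type (WT) and 4 Neat1-/- animals, all of them C57BL/6 females. WT replicates 1 and 2 were 2 months old, replicate 3 was 3 months old and replicates 4 and 5 were 4 months old; of the Neat1-/- group, replicates 1 and 3 were 3 months old, replicate 4 was 4 months old and replicate 5 was 2 months old. The Neat1-/- allele is constitutive and carries lacZ with polyadenylation signals inserted close behind the Neat1 start site. The tissue was bulk frontal cortex, so each value is an average over neurons, glia and vessels, and fewer cells of a type and less RNA per cell cannot be told apart. The comparison asks which genes differ in the cortex of mice that lack Neat1, the long noncoding RNA that scaffolds nuclear paraspeckles.

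Neurons store transmitter in synaptic vesicles and release it when calcium enters the terminal. Vesicle synaptobrevin and the plasma membrane proteins syntaxin and SNAP-25 zip into a SNARE complex that pulls the membranes together; Munc13 and Rab3 proteins make vesicles ready, complexins and synaptotagmins tie fusion to calcium, and NSF with its SNAP adaptors takes the spent complexes apart. Dynamin, amphiphysin, endophilin and synaptojanin then return the membrane for refilling, and in cortex this set of proteins is a hallmark of neurons and of their synapses.

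Across the whole machinery the difference between Neat1-/- and WT cortex was small, and no member passed the test. Of the 41 genes, 0 had an adjusted p under 0.05 in edgeR's quasi-likelihood test, in DESeq2 or in limma, against 0.0709% of all genes tested with edgeR. The lowest adjusted p of a member was 0.543 in edgeR (Doc2a). The log2 fold changes, Neat1-/- over WT, ran from -0.14 for Unc13b to 0.20 for Doc2a, and 35 of the 41 lay within 0.1 of 0. The median over the members was 0.03 on the log2 scale, against 0.0 over all genes tested and 0.01 over the 10473 genes at or above the level of the lowest member.

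At these levels the libraries also bounded the differences that could be present. The 95% interval of the fold change lay within 1.25-fold in either direction for 38 of the 41 members (92.7%), against 56.2% of all genes tested and 95.2% of genes at or above the level of the lowest member. The exceptions were Doc2a, with an interval of 0.05 to 0.34 on the log2 scale, Cplx3, with -0.18 to 0.44, and Syn3, with -0.36 to 0.22. The median standard error of a log2 fold change was 0.041 for the members and 0.081 for all genes tested.

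**Figure D1:**
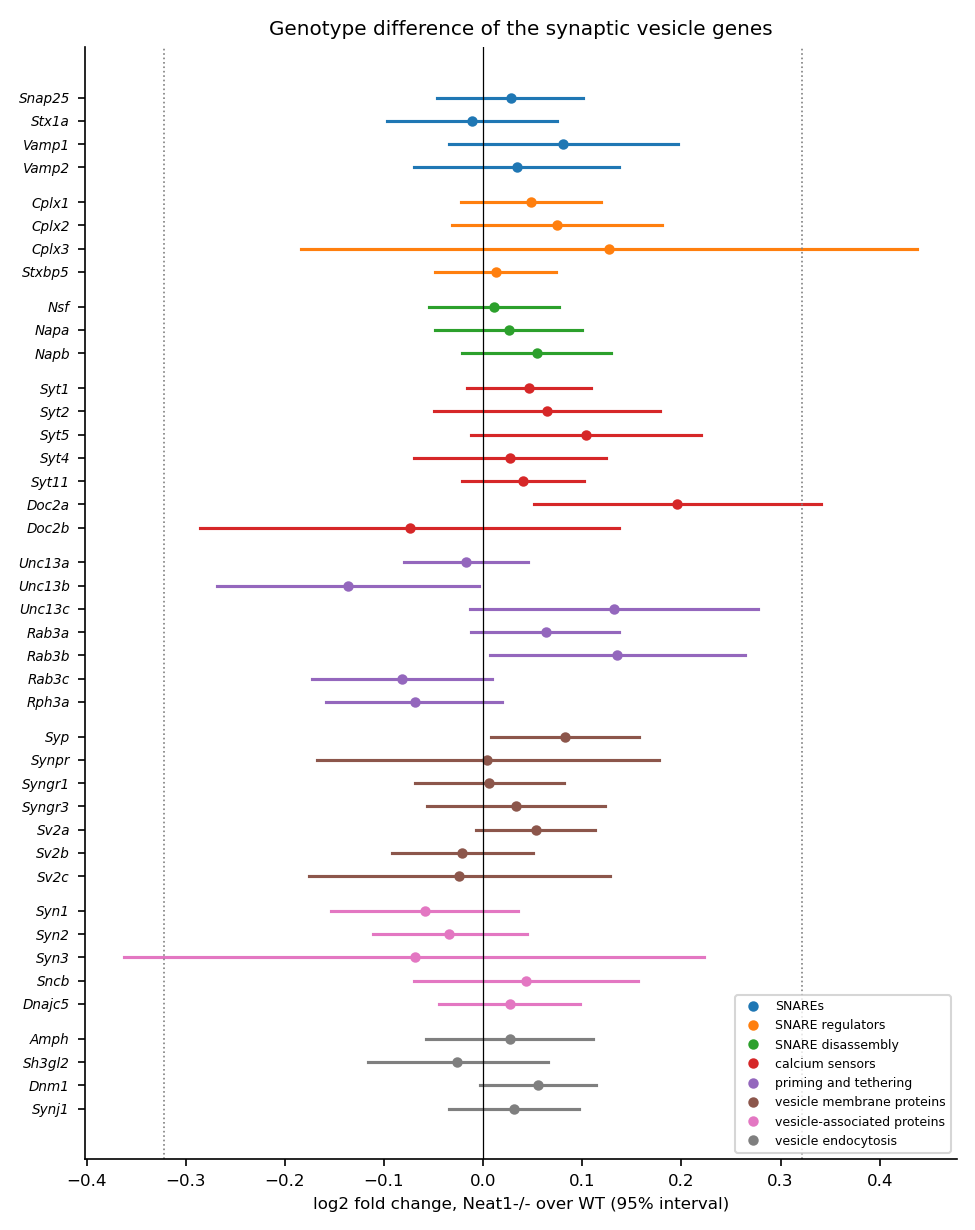
Log2 fold change (Neat1-/- over WT, horizontal axis) of each of the 41 genes from edgeR with its 95% interval, in the order and colours of the roles. Dotted lines mark 1.25-fold in either direction; 35 points lie within 0.1 of 0 and 38 intervals lie between the dotted lines.

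At an unadjusted p under 0.05 in edgeR, 3 members (Doc2a, Syp and Rab3b) were higher in Neat1-/- mice and 1 (Unc13b) was lower. Over all genes tested, the same threshold held 4.27% in the higher direction and 4.03% in the lower, against 7.32% and 2.44% of the members. Genotypes did not overlap in TMM-normalized CPM (counts per 1e+06 reads) for 0 of the 41 members, against 2.67% of all genes tested. A positive log2 fold change was found for 29 members (70.7%) and a negative one for 12, against 58.7% positive among genes at or above the level of the lowest member.

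A pair of WT libraries stood apart in the share of counts on certain gene models, and each also differed in a list of tissue markers. In WT replicates 3 and 4, 0.234% and 0.212% of the counts fell on gene models of the types TEC and sense intronic, against at most 0.136% in the other 7 libraries. WT replicate 3 was the lowest of the 9 libraries for 21 of the 41 members, and the median member there was 0.08 below its 9-mouse mean on the log2 scale. WT replicate 4 was the lowest for 5 members, and the median there was 0.03 below. Choroid plexus RNA was highest in WT replicate 3, where 6 detected markers summed to 117 CPM, against 14.8 to 26.3 CPM in the other 8 libraries. Meningeal fibroblast markers were lowest in WT replicate 4. Their median there was -1.36 relative to the 9-mouse mean on the log2 scale, against -0.07 to 0.45 in the other 8 libraries. The 12 neuronal markers summed to 5930 to 6140 CPM in WT and 5960 to 6070 CPM in Neat1-/- mice, and the 12 interneuron markers to 860 to 919 CPM and 876 to 906 CPM. Of 10 oligodendrocyte markers, 5 were lower in Neat1-/- mice at an unadjusted p under 0.05 in edgeR and 0 higher, against 4.03% and 4.27% of all genes tested. Their sums were 2330 to 3670 CPM in WT and 1980 to 3020 CPM in Neat1-/- mice. At the same threshold, 1 of the 12 neuronal markers was lower and 0 higher, and 2 of 11 glutamatergic markers were higher and 0 lower. Of the 12 interneuron markers, 0 passed it. No listed marker of these types was at 0 in all libraries, and the part of these differences in the results was not tested. Neat1 itself averaged 81.5 CPM (SD 23.0, n = 5) in WT libraries and 8.14 CPM (SD 1.18, n = 4) in Neat1-/- libraries.

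When WT replicates 3 and 4 were left out, the set of members past the unadjusted threshold was replaced. Of the 5 members with an unadjusted p under 0.05 in edgeR in that setting, 0 were among the 4 found with all libraries, and 0 of the 41 passed the adjusted test. The lower ones were Rab3c and Syn2 and the higher ones Unc13c, Syt2 and Vamp1, all named here after their values were seen; in that setting 3.81% of all genes tested were higher and 3.48% lower. The share of members with a positive log2 fold change was then 58.5% (24 of 41), and the median log2 fold change 0.01.

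**Figure D2:**
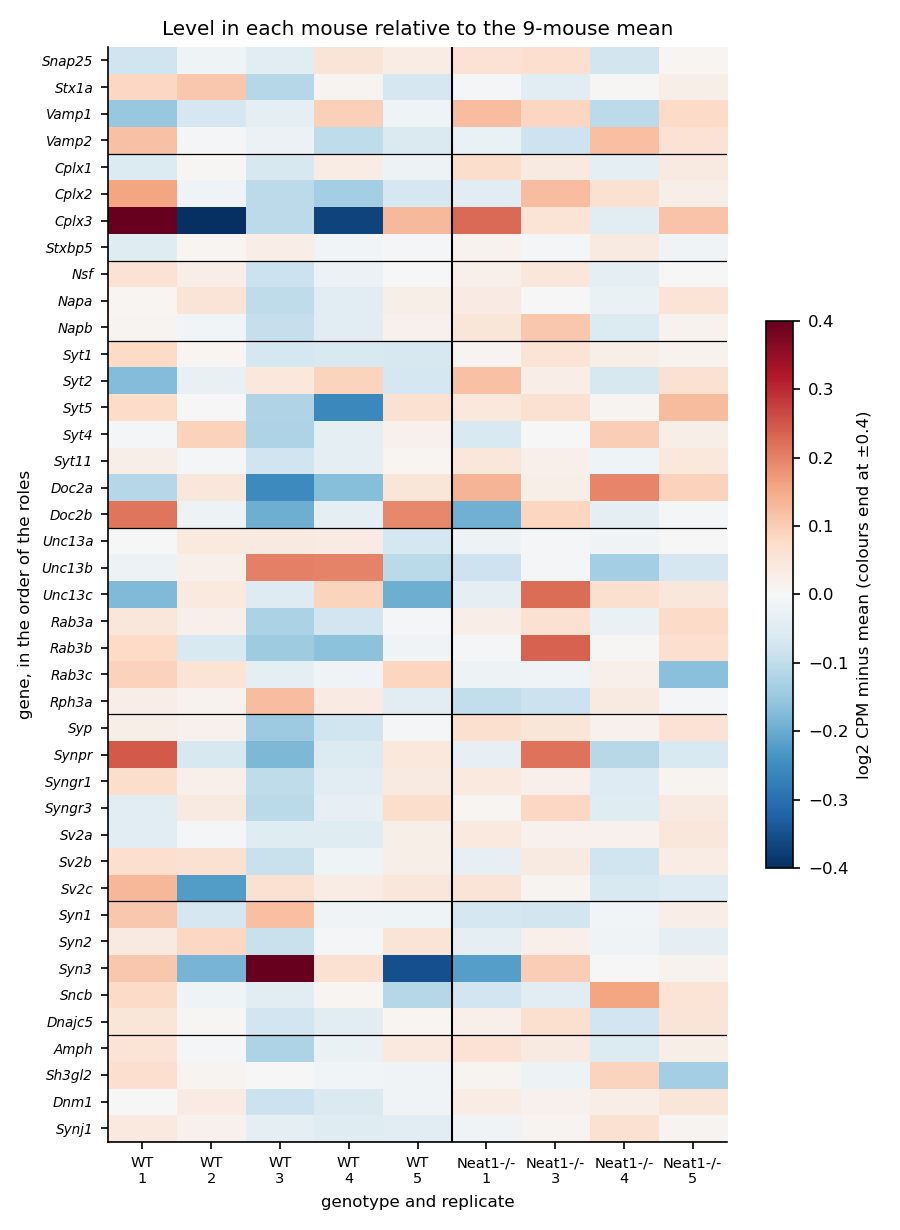
Level of each gene in each mouse as log2 CPM less the mean of the 9 mice, with genes in the order of the roles (horizontal lines) and WT mice left of the vertical line. WT replicate 3 is below the mean for 32 of the 41 genes; Cplx3 and Syn3 show the widest spread, and no row separates the genotypes.

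Among the SNARE proteins, the products of Snap25, Stx1a, Vamp1 and Vamp2, log2 fold changes ran from -0.01 to 0.08. Snap25 encodes the plasma membrane SNARE that supplies a pair of helices to the complex, and had the highest length-scaled level of all members, 429 CPM per kb of exon. It was at 2757, 2879, 2821, 3015 and 2971 CPM in WT replicates 1 to 5 and at 3029, 3050, 2765 and 2929 CPM in Neat1-/- replicates 1, 3, 4 and 5. The genotypes overlapped, with the lowest mouse in the WT group and the highest in the Neat1-/- group. The log2 fold change was 0.03 (95% interval -0.05 to 0.10). Stx1a, which encodes syntaxin-1A, averaged 266.3 CPM (SD 17.4) in the 5 WT libraries and 264 CPM (SD 5.29) in the 4 Neat1-/- libraries. Synaptobrevin was supplied mainly by Vamp2, the forebrain form, which held 75.8% ± 2.1 of the length-scaled synaptobrevin RNA in WT (SD, n = 5) and 75.2% ± 2.3 in Neat1-/- mice (SD, n = 4).

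The regulators of SNARE assembly had small positive log2 fold changes, from 0.01 to 0.13, and none passed the test. Complexins clamp and promote fusion, and Stxbp5 encodes tomosyn, which competes with synaptobrevin for the plasma membrane SNAREs. Cplx2 was at 784, 696, 655, 641 and 671 CPM in WT replicates 1 to 5 and at 684, 766, 735 and 714.5 CPM in Neat1-/- replicates 1, 3, 4 and 5. WT replicate 1 was the highest of all and WT replicate 4 the lowest, so the WT range enclosed every Neat1-/- mouse. Cplx1 and Cplx2 supplied nearly equal shares of the length-scaled complexin RNA, 48.2% ± 2.5 and 50.4% ± 2.2 in WT and 47.7% ± 1.6 and 50.8% ± 1.7 in Neat1-/- mice. Stxbp5 was the steadiest member, with an SD of 0.025 over the 9 mice on the log2 scale.

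Cplx3, a complexin of retinal ribbon synapses and of deep cortical neurons, was the most variable member. It was at 16.3, 9.05, 11.3, 9.40 and 13.3 CPM in WT replicates 1 to 5 and at 14.2, 12.6, 11.8 and 13.2 CPM in Neat1-/- replicates 1, 3, 4 and 5. The highest and the lowest mouse were both WT, and the SD over the 9 mice was 0.272 on the log2 scale, against a median of 0.068 over the members. The median of 3 detected markers of layer 6b and subplate, relative to the 9-mouse mean on the log2 scale, was 0.25, -0.13, 0.01, -0.51 and -0.02 in WT replicates 1 to 5 and 0.08, 0.14, -0.09 and 0.35 in the Neat1-/- mice in the same order. Cplx3 and the median of these markers were low in WT replicates 2 and 4 and high in WT replicate 1. In WT replicate 5 Cplx3 was high while that median was near the 9-mouse mean. Of the markers, Ccn2 was also high there, at 25.8 CPM against a WT mean of 20.8 CPM. Nxph4 was at 0.542 CPM there against a WT mean of 0.57 CPM. The relation of Cplx3 to the markers was not tested.

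The genes that take spent SNARE complexes apart were nearly level between genotypes. Napb encodes the brain-enriched beta-SNAP, an adaptor that brings the ATPase NSF to the complex. It was at 970.1, 956, 904, 935 and 974 CPM in WT replicates 1 to 5 and at 997, 1039, 928 and 974 CPM in Neat1-/- replicates 1, 3, 4 and 5. WT replicate 3 was the lowest and Neat1-/- replicate 3 the highest, with the other mice mixed. The log2 fold changes were 0.05 for Napb, 0.03 for Napa (alpha-SNAP) and 0.01 for Nsf. Napb held 69.3% ± 0.44 of the length-scaled RNA of Napa and Napb in WT and 69.7% ± 0.99 in Neat1-/- mice.

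The calcium sensors held the member with the largest log2 fold change. Syt1, the main fast sensor of forebrain synapses, was at 1747, 1662, 1574, 1585 and 1581 CPM in WT replicates 1 to 5 and at 1664, 1716, 1680.0 and 1667 CPM in Neat1-/- replicates 1, 3, 4 and 5. The Neat1-/- mice lay close together inside the WT range, and the log2 fold change was 0.05 (95% interval -0.02 to 0.11). Of the length-scaled RNA of Syt1, Syt2 and Syt5 together, Syt1 held 80.2% ± 0.86 in WT and 79.6% ± 0.63 in Neat1-/- mice. The log2 fold changes of Syt4 and Syt11, whose proteins bind calcium poorly or not at all through their first C2 domain, were 0.03 and 0.04.

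Doc2a encodes a soluble sensor with high calcium affinity that supports spontaneous and delayed release at glutamatergic synapses. It (ENSMUSG00000052301, GRCm38 chr7:126847416-126852705, plus strand) was at 22.3, 24.9, 20.2, 21.5 and 25.0 CPM in WT replicates 1 to 5 and at 26.5, 24.6, 27.6 and 25.8 CPM in Neat1-/- replicates 1, 3, 4 and 5. Of the Neat1-/- mice, 3 were above every WT mouse, and replicate 3 was below WT replicates 2 and 5. The WT mean was 22.8 CPM (SD 2.11, n = 5) and the Neat1-/- mean 26.1 CPM (SD 1.30, n = 4), which gave a log2 fold change of 0.20 (standard error 0.067; edgeR, unadjusted p = 0.0119, adjusted p = 0.543). Without WT replicates 3 and 4, which held the lowest levels, the log2 fold change was 0.10 (edgeR, unadjusted p = 0.0988). Its exons overlap those of Ino80e on the other strand, and no source states whether counting used the strand. If it did not, reads lying wholly on the shared bases would be assigned to neither gene under HTSeq's intersection-strict mode. That mode comes from the supplementary methods, which name another aligner and another HTSeq version than the submitters' processing notes. In all, 12 of the 41 members share exon bases with a gene on the other strand, Syp and Rab3b among them. Doc2b, the form reported in inhibitory neurons, had a log2 fold change of -0.07 (95% interval -0.29 to 0.14).

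The priming and tethering genes were the group with most spread in direction, 3 positive and 4 negative. Rab3a encodes the main GTPase of synaptic vesicles, and was at 389, 383, 345, 358 and 376 CPM in WT replicates 1 to 5 and at 384.5, 394, 371 and 398 CPM in Neat1-/- replicates 1, 3, 4 and 5. The groups overlapped, with WT replicates 3 and 4 below every Neat1-/- mouse. Its log2 fold change was 0.06 (95% interval -0.01 to 0.14).

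Rab3b, a minor form that is known for its part in long-term depression at inhibitory terminals, was at 37.2, 33.7, 31.9, 31.4 and 34.8 CPM in WT replicates 1 to 5 and at 35.0, 41.4, 35.3 and 36.8 CPM in Neat1-/- replicates 1, 3, 4 and 5. Every Neat1-/- mouse was above WT replicates 2 to 5, and WT replicate 1 was above 3 of the 4 Neat1-/- mice. The median of 9 striatal markers, relative to the 9-mouse mean on the log2 scale, was 0.32, -0.16, -0.19, -0.12 and -0.14 in WT replicates 1 to 5. In the Neat1-/- mice it was -0.04, 0.23, -0.10 and 0.14 in the same order. Rab3b and these markers were highest in WT replicate 1 and Neat1-/- replicates 3 and 5, and their relation was not tested. The log2 fold change of Rab3b (ENSMUSG00000003411, chr4:108879063-108943324, plus strand) was 0.14 (standard error 0.059; edgeR, unadjusted p = 0.0402, adjusted p = 0.594), and 0.08 without WT replicates 3 and 4 (unadjusted p = 0.222, edgeR).

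Rab3c stood on the other side, at 443, 432, 404, 412 and 441 CPM in WT replicates 1 to 5 and at 410.0, 412, 421 and 370 CPM in Neat1-/- replicates 1, 3, 4 and 5. With all libraries the groups overlapped through WT replicates 3 and 4, and the log2 fold change was -0.08 (standard error 0.042; edgeR, unadjusted p = 0.0739). Without those libraries every Neat1-/- mouse was below every WT mouse, with a log2 fold change of -0.14 (edgeR, unadjusted p = 0.00164, adjusted p = 0.345). The deposited normalized values, already adjusted for covariates by the authors, also held no overlap between the groups, and there limma gave a log2 fold change of -0.13 and an adjusted p of 0.0945, the lowest of any member in any of the 20 alternatives. That p takes no account of the earlier adjustment. As a share of the length-scaled Rab3 RNA, Rab3a held 78.7% ± 0.29 in WT and 79.8% ± 1.1 in Neat1-/- mice, Rab3b 4.54% ± 0.16 and 4.84% ± 0.30, and Rab3c 16.8% ± 0.24 and 15.4% ± 1.1; the lowest Rab3c share of a mouse was 14%. Rab3c was singled out after its values were seen, and its share was not tested.

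Munc13 proteins open syntaxin for SNARE assembly, and Unc13a, which encodes the form most cortical synapses depend on, held 82.2% ± 0.89 of the length-scaled Munc13 RNA in WT and 81.9% ± 0.76 in Neat1-/- mice. Unc13b, which encodes Munc13-2, was at 100.5, 103, 117, 117 and 94.7 CPM in WT replicates 1 to 5 and at 96.3, 101, 92.8 and 97.3 CPM in Neat1-/- replicates 1, 3, 4 and 5. The high values were those of WT replicates 3 and 4, WT replicate 2 was also above every Neat1-/- mouse, and WT replicates 1 and 5 lay within the Neat1-/- range. The log2 fold change of Unc13b (ENSMUSG00000028456, chr4:43058953-43264871, plus strand) was -0.14 (standard error 0.061; edgeR, unadjusted p = 0.0443, adjusted p = 0.596), and -0.03 without WT replicates 3 and 4 (unadjusted p = 0.498, edgeR). Unc13c, best known from the cerebellum, averaged 43.6 CPM (SD 3.83, n = 5) in WT libraries and 47.8 CPM (SD 3.70, n = 4) in Neat1-/- libraries. Rph3a, which encodes a Rab3 effector, had a log2 fold change of -0.07 (95% interval -0.16 to 0.02).

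**Figure D3:**
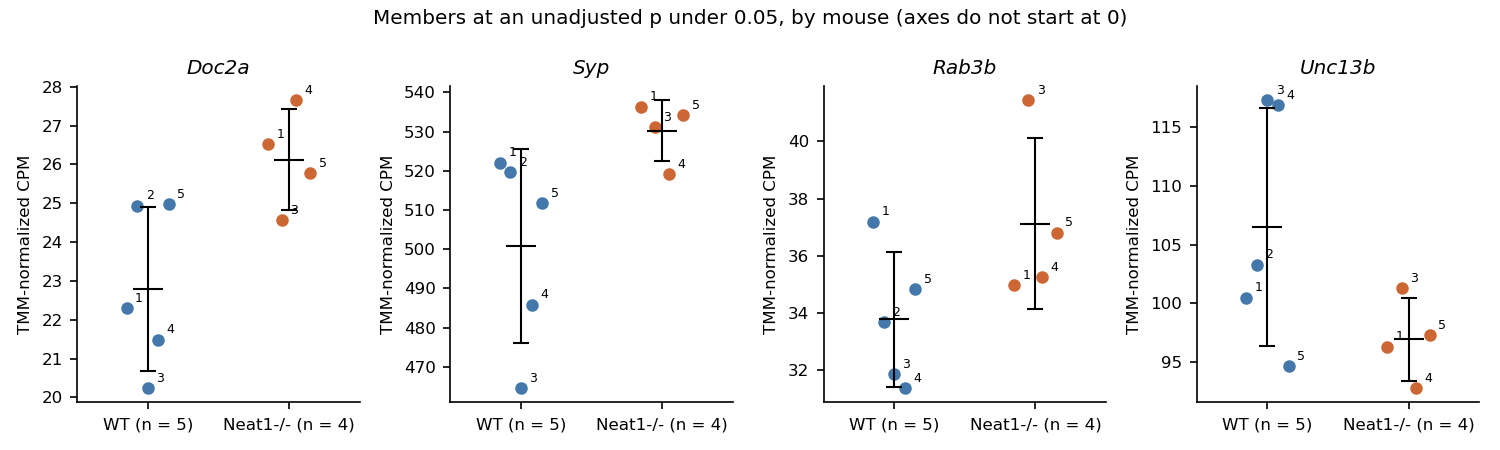
TMM-normalized CPM (vertical axes, not starting at 0) of Doc2a, Syp, Rab3b and Unc13b in each mouse, numbered by replicate, with the mean and SD of each genotype as bars. WT replicate 3 is the lowest mouse for Doc2a and Syp and the highest for Unc13b, and the genotypes overlap in every panel.

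The integral proteins of the vesicle membrane had log2 fold changes between -0.02 and 0.08. Syp encodes synaptophysin, the abundant vesicle protein that binds synaptobrevin and is widely used as a marker of terminals. It (ENSMUSG00000031144, chrX:7638471-7653256, plus strand) was at 522, 519.7, 465, 486 and 512 CPM in WT replicates 1 to 5 and at 536, 531, 519.1 and 534 CPM in Neat1-/- replicates 1, 3, 4 and 5. Of the Neat1-/- mice, 3 were above every WT mouse, while WT replicates 3 and 4 were lowest. The WT mean was 501 CPM (SD 24.8, n = 5) and the Neat1-/- mean 530.2 CPM (SD 7.75, n = 4), which gave a log2 fold change of 0.08 (standard error 0.035; edgeR, unadjusted p = 0.0329, adjusted p = 0.581). Without WT replicates 3 and 4 it was 0.04 (edgeR, unadjusted p = 0.166).

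The other vesicle membrane genes had unadjusted p-values above 0.05 in edgeR. Sv2b, the most abundant of the SV2 glycoproteins here, was at 1117, 1111, 1002, 1054 and 1084 CPM in WT replicates 1 to 5 and at 1043, 1094, 1009 and 1088 CPM in Neat1-/- replicates 1, 3, 4 and 5, all of them inside the WT range. Sv2a, the target of the antiepileptic levetiracetam, averaged 431 CPM (SD 9.61, n = 5) in WT libraries and 447 CPM (SD 4.75, n = 4) in Neat1-/- libraries (log2 fold change 0.05, 95% interval -0.01 to 0.11). Within the SV2 family, Sv2b held 57.5% ± 0.97 and 56.3% ± 0.88 of the length-scaled RNA in WT and Neat1-/- mice, and Sv2a 41.8% ± 0.95 and 43.0% ± 0.87. Synaptophysin made up 90.6% ± 0.70 of the RNA of Syp and its relative Synpr in WT and 91.0% ± 0.84 in Neat1-/- mice. Synaptogyrin RNA, a tetraspan relative, was 65.9% ± 0.91 and 65.5% ± 0.60 Syngr1, with the rest from Syngr3.

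Proteins attached to the vesicle surface had 2 positive and 3 negative log2 fold changes, from -0.07 to 0.04. Synapsins tether vesicles in the reserve pool. Syn2 was at 548, 566, 501, 530.4 and 553 CPM in WT replicates 1 to 5 and at 519.9, 541, 529 and 519.1 CPM in Neat1-/- replicates 1, 3, 4 and 5. WT replicate 3 was the lowest of all; the Neat1-/- mice lay between it and the higher WT mice, and the log2 fold change was -0.03 (95% interval -0.11 to 0.04). Syn2 supplied 74.8% ± 1.9 and 75.1% ± 0.82 of the length-scaled synapsin RNA in WT and Neat1-/- mice, Syn1 24.0% ± 1.7 and 23.7% ± 0.83, and Syn3, the lowest member per length, 1.22% ± 0.30 and 1.18% ± 0.094. Sncb (beta-synuclein) and Dnajc5, which encodes the chaperone CSP-alpha that keeps SNAP-25 functional, had log2 fold changes of 0.04 and 0.03.

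The genes of vesicle recovery had log2 fold changes from -0.03 to 0.06. Dnm1 encodes dynamin-1, the neuronal GTPase that pinches off vesicles, and was at 1095, 1118, 1029, 1049 and 1083 CPM in WT replicates 1 to 5 and at 1116, 1106, 1114 and 1131 CPM in Neat1-/- replicates 1, 3, 4 and 5. The Neat1-/- mice were close together at the top of the range, and WT replicate 2 was above 3 of them. Its log2 fold change was 0.06 (standard error 0.027; edgeR, unadjusted p = 0.0613). Amph (amphiphysin), Synj1 (synaptojanin-1, the lipid phosphatase that uncoats vesicles) and Sh3gl2 (endophilin-A1) had log2 fold changes of 0.03, 0.03 and -0.03.

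**Figure D4:**
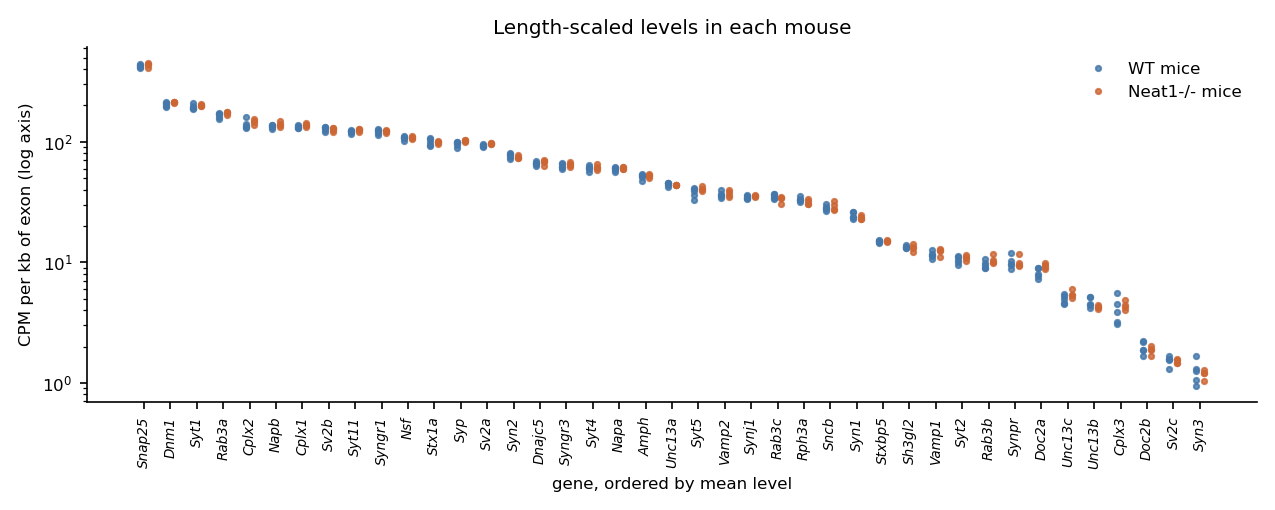
CPM per kb of exon (vertical log axis) of the 41 genes in each mouse, ordered by the mean over 9 mice, with WT mice at the left and Neat1-/- mice at the right of each position. Levels span from 429 for Snap25 to 1.22 for Syn3, and within each gene the points of the genotypes lie together.

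Levels per length separated a common set from scarce relatives of the same families. After Snap25, the highest were Dnm1 at 208, Syt1 at 198, Rab3a at 170.0 and Cplx2 at 143 CPM per kb of exon. The lowest were Cplx3 at 4.18, Doc2b at 1.92, Sv2c at 1.53 and Syn3 at 1.22 CPM per kb. Exon length here is the union of all annotated exons, so genes with long alternative exons are understated. The members took between 1.64% and 1.75% of all counts in each library.

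Vamp1, Syt2 and Cplx1 are the forms that fast-spiking parvalbumin interneurons favour over Vamp2 and Syt1, and they were grouped here after their values were seen. Vamp1 was at 109, 115, 117, 129 and 119 CPM in WT replicates 1 to 5 and at 131, 128, 112 and 127 CPM in Neat1-/- replicates 1, 3, 4 and 5. Syt2 was at 72.1, 79.8, 83.7, 86.5 and 77.5 CPM and at 88.3, 83.0, 77.9 and 84.9 CPM in the same order. Pvalb was at 54.7, 58.3, 53.4, 63.4 and 56.0 CPM and at 60.7, 58.0, 56.3 and 58.5 CPM. All of these, and Cplx1, were high in WT replicate 4 and Neat1-/- replicate 1, and low in WT replicate 1 and Neat1-/- replicate 4. The pattern was not particular to these genes. Snap25 had it too, at 2757 and 3015 CPM in WT replicates 1 and 4 and at 3029 and 2765 CPM in Neat1-/- replicates 1 and 4. Stx1a and Cplx2 did not have it. The log2 fold changes were 0.08 for Vamp1, 0.06 for Syt2, 0.05 for Cplx1 and 0.03 for Pvalb, with no adjusted p under 0.05 in edgeR.

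**Figure D5:**
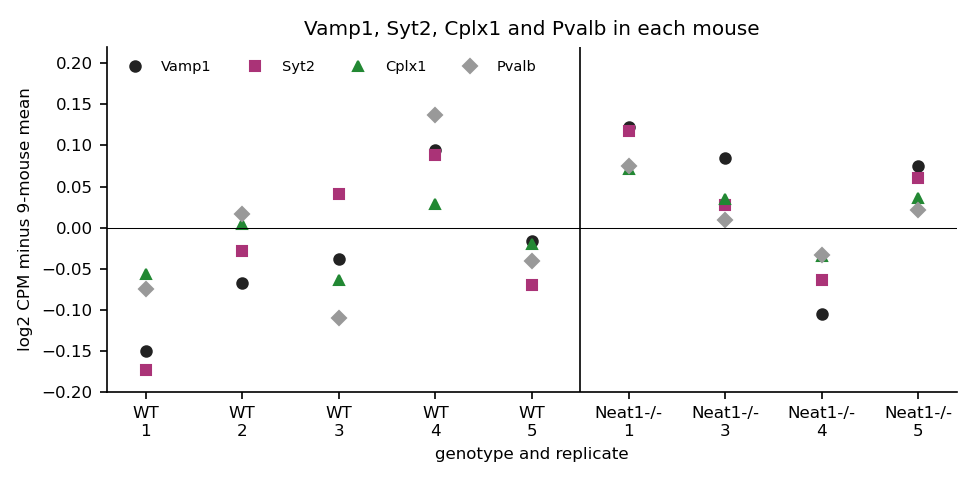
Vamp1, Syt2, Cplx1 and Pvalb in each mouse as log2 CPM less the mean of the 9 mice (vertical axis), with WT mice left of the line. All 4 genes are below the mean in WT replicate 1 and Neat1-/- replicate 4 and above it in WT replicate 4 and Neat1-/- replicate 1.

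Long members tended to have lower log2 fold changes than short ones. Over the 41 members, genomic span and log2 fold change had a Spearman correlation of -0.47, against -0.24 over 10443 genes at or above the level of the lowest member and 0.05 over 19569 genes tested. Without WT replicates 3 and 4 it was -0.18 over the members and 0.02 over the genes at or above their level. All points come from the same 9 libraries and genes are not independent replicates, so these values are a description.

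The sequences before the start sites are shown for the members at an unadjusted p under 0.05 that have an entry among the RefSeq promoters; Doc2a had none. Each is the 250 bases before the RefSeq start on the plus strand, GRCm38.p6, with capitals on GGGCGG and its reverse complement CCGCCC, the GC box bound by Sp1-type factors: Syp at chrX:7638330-7638579, Rab3b at chr4:108878820-108879069 and Unc13b at chr4:43058703-43058952.
Syp: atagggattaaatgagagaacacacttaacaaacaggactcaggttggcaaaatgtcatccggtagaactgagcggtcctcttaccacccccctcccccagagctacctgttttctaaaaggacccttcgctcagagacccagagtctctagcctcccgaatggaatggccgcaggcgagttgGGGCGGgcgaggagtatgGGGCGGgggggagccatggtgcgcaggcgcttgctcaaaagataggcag
Rab3b: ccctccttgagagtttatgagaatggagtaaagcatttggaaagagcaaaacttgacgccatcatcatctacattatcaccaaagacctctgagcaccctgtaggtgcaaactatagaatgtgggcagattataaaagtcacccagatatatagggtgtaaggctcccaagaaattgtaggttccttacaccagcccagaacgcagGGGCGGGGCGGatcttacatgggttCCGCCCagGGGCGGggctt
Unc13b: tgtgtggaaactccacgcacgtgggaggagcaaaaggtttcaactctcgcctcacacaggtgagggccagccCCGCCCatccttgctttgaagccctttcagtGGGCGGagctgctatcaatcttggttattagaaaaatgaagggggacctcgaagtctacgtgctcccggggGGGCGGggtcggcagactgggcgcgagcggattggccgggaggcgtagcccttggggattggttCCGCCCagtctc
Syp had 2 matches, Rab3b 4 (a pair of them overlapping) and Unc13b 4. The Syp and Rab3b windows end past the GENCODE gene starts given above, and the Syp matches lie beyond that start. Over the 32 members with an entry, 25 of 43 windows (58.1%) held the GC box on either strand, against 32.7% of all 32851 windows of the same length. TATAAA was in 3 of the 43 (6.98%, against 12.4%) and the cyclic AMP response element TGACGTCA in 2 (4.65%, against 1.55%), those of Sh3gl2 and Syn1. Members with log2 fold changes near 0 held these letters as well, and the matches are a description of the sequence only.

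The comparison was extended to presynaptic genes outside the list. Of 83 further genes, 82 were tested, and 0 had an adjusted p under 0.05 in edgeR, against 0.0709% of all genes tested. The median log2 fold change was 0.02. At an unadjusted p under 0.05 in edgeR, 1 of the 82 was higher and 1 lower, against 4.27% and 4.03% of all genes tested. Of 36 exocytosis genes, Snapin, which encodes a SNAP-25 partner, was higher (mean 44.6 CPM, SD 2.26, n = 5 WT, and 48.2 CPM, SD 3.14, n = 4 Neat1-/-; edgeR, unadjusted p = 0.034, adjusted p = 0.582). Syt12, an atypical synaptotagmin, was lower (40.7 ± 1.49 and 38.1 ± 1.36 CPM; edgeR, unadjusted p = 0.0398, adjusted p = 0.594). Of 28 clathrin and endocytosis genes and of 18 genes for the vesicle proton pump and transmitter transporters, 0 had an unadjusted p under 0.05 in edgeR. These counts moved with the setting. Without WT replicates 3 and 4, 0 of the further presynaptic genes were higher and 8 lower, against 3.81% and 3.48% of all genes tested. With limma on the deposited values, 1 was higher and 10 were lower, against 9.94% and 7.57% of all genes there.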

How the data were processed

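The authors deposited raw read counts per Ensembl gene for 9 libraries and log2 normalized expression values for 13456 genes, from which they had removed covariates. The submitters' processing notes name STAR 2.5.0, HTSeq 0.8.0, limma and mm10. All 41 members were in both tables, and 0 columns were left unused. Total counts ran from 51276067 to 64648856 per library. Names, exons and positions came from GENCODE vM21 (GRCm38), with 97.5% of IDs named.

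Genes passing filterByExpr were tested with edgeR 4.0.16 (glmQLFit, glmQLFTest; R 4.3.3) with TMM factors and age in months as a covariate, in place of the limma fit in the methods of the study, since counts were available. Benjamini-Hochberg adjustment at 0.05 ran over all genes tested. No source says whether mice were littermates. The p-values set each genotype difference against the spread between these mice and treat the mice as independent. The fitting script was checked separately on simulated data; all values given come from the deposited files. Alternatives were DESeq2 1.42.0, limma 3.58.1 (voomWithQualityWeights, and on the deposited values), other size factors, filters and age terms, a replicate block, and each library left out; leaving out WT replicates 3 and 4 together was added after seeing the data. Per-mouse values are given for members at an unadjusted p under 0.05 and the highest member per length of each role; Cplx3, Rab3c, Vamp1 and Syt2 were added after their values were seen. Members and lists were chosen with earlier results of these data known. Python 3.11.15, NumPy 2.4.6, pandas 2.3.3 and Matplotlib 3.10.9 did the rest.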

Additional observations from a re-analysis of the deposited data

How the results depend on the processing

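The count of members at an adjusted p under 0.05 was 0 under all 20 alternatives. The median log2 fold change of the members, 0.028, stayed positive but was 0.016 without WT replicate 3, 0.011 without WT replicates 3 and 4, and 0.017 with library size alone or the CPM filter; it is smaller than the SD of the members' median over WT mice (0.047). The sets past an unadjusted p under 0.05 were less steady. Members higher numbered 5 with limma voomWithQualityWeights (5.5% of all genes) and 5 with no filter on low counts (3.35%), in place of 3, and 1 to 7 with 1 library left out (2.39% to 6.13% of all genes; 7 without WT replicate 5, 6 without WT replicate 1, and 1 without WT replicate 3 or Neat1-/- replicate 3). Members lower numbered 2 with DESeq2 (4.01% of all genes), limma voomWithQualityWeights (4.39%), library size alone (4.79%), a filter of CPM 1 in 4 libraries (4.47%) and without WT replicates 3 and 4 (3.48%), and 3 with limma on the deposited normalized values (7.57%), in place of 1; leaving out 1 library gave 0 to 2 (2.68% to 8.58% of all genes; 2 without WT replicate 2, 3 or 5 or Neat1-/- replicate 4, and 0 without Neat1-/- replicate 1 or 5). Genotypes did not overlap for 5 members in the deposited values (Rab3c, Syp, Sv2a, Syn2 and Dnm1; 7.89% of all genes there), 2 without WT replicates 3 and 4 (7.77% of all genes), and 0 to 2 with 1 library left out (3.6% to 6.09% of all genes). Of the 82 other presynaptic genes, the higher ones numbered 2 with DESeq2 (3.79% of all genes) and with limma voomWithQualityWeights (5.5%), in place of 1. They numbered 4 with no filter (3.35%), and 0 with age as a factor (4.14%) and without WT replicates 3 and 4 (3.81%). With 1 library left out they numbered 0 to 4 (2.39% to 6.13% of all genes). There were 4 without WT replicate 5, and 0 without WT replicate 3 or 4 or Neat1-/- replicate 1 or 3. The lower ones numbered 3 with limma voomWithQualityWeights (4.39% of all genes) and 10 with the deposited values (7.57% of all genes), in place of 1. Further counts were 4 with library size alone (4.79%) and with the CPM filter (4.47%), and 0 with no filter (4.21%). Without WT replicates 3 and 4 the lower ones numbered 8 (3.48% of all genes). With 1 library left out they numbered 0 to 5 (2.68% to 8.58% of all genes). There were 5 without WT replicate 3, 4 without WT replicate 5, and 0 without Neat1-/- replicate 3, 4 or 5. The cause was not tested.

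Doc2a, Syp, Rab3b and Unc13b kept their sign in 20 of 20 alternatives and passed an unadjusted p under 0.05 in 18, 13, 8 and 13 of them; 0 of the 4 passed it without Neat1-/- replicate 4, 1 without WT replicate 3 and 1 without WT replicate 4. With the replicate block, 2 members were lower (5.78% of all genes), 3 other presynaptic genes were higher (4.02% of all genes), and 0 members passed the adjusted test. The labels state no shared origin for same-numbered mice, and their deviations had correlations of 0.044, -0.045, 0.137 and -0.077 for numbers 1, 3, 4 and 5. For Doc2a, Cplx3 and Syn3 the intervals reached past 1.25-fold, so that these libraries do not bound a difference of that size.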
